A study of Caenorhabditis elegans with 22 samples.

Results

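The miRNAs mir-48, mir-84 and mir-241, known as the let-7 sisters, were followed through the adult life of Caenorhabditis elegans in small RNA libraries. They were chosen by name, as the 3 rows cel-mir-48, cel-mir-84 and cel-mir-241 of a count table of 250 miRNA hairpins. All 3 passed the filter on low counts, as did 141 of the 250 hairpins in all, and none was at 0 in any library.

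The libraries were made from whole hermaphrodites of the wild-type strain N2. One set of worms is labelled with rotenone at 0.039441 µg/ml, which blocks complex I of mitochondrial respiration. The other is labelled with 2-deoxyglucose, which hinders glycolysis; its dose is not in the labels. Each compound has 3 libraries at each of the ages of 1, 5 and 10 days and 2 at 20 days, so the 22 libraries form 8 groups. The title of the series names DMSO where the sample labels name 2-deoxyglucose; the sample labels are followed here. No untreated group was analysed here, so a difference between the groups cannot be assigned to either compound. Neither the event from which age was counted nor the number of worms in a library is in the labels. Nothing there says that replicate libraries stem from separate cultures, and the p-values then reflect only how these libraries vary, some of which may be technical.

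The let-7 sisters carry the same seed as let-7, the stretch of a miRNA that pairs with its target mRNAs. In the larva they act together to lower the transcription factor HBL-1, which lets the epidermal seam cells pass from the cell divisions of the second larval stage to those of the stage that follows. In the adult, the nuclear hormone receptor DAF-12 can raise mir-84 and mir-241, and in worms without a germline this branch is known to act on the insulin pathway through akt-1 and lin-14. All 3 have also been linked to the response to the pathogen Pseudomonas aeruginosa.

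In the Ensembl annotation of WBcel235, mir-48 (WBGene00003039) lies on chromosome V from 14364412 to 14364509 and mir-241 (WBGene00003335) on the same chromosome from 14366188 to 14366283. Both are on the minus strand, with 1678 bases between them, and no other miRNA gene is annotated within 10 kb of either. mir-84 (WBGene00003312) lies alone on chromosome X, from 16022404 to 16022478 on the minus strand, 648 bases from the protein-coding gene nhx-1. None of the 3 hairpins overlaps another annotated gene.

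Total counts per library lay between 664900 and 2233973, and the 3 sisters together made up between 1.67% and 2.94% of them. The lowest single count was 122, for mir-241 in 2-deoxyglucose day 20 library 1, with an exact 95% Poisson interval of 101 to 146; the lowest counts of mir-84 and mir-48 were 2669 and 12002. Such an interval covers counting error only, because PCR copies were not told apart by molecular identifiers. Markers of muscle (mir-1), intestine (mir-60), neurons (mir-124 and lsy-6) and glia (mir-228) had counts in every library, as did all 7 hairpins from mir-35 to mir-41, which were taken here as markers of embryos held inside the worms. Whether their reads came from embryos was not tested at any age. The summed level of those 7 embryonic hairpins went from between 108604 and 187360 CPM at day 1 to between 238475 and 315607 CPM at day 20. In whole worms, fewer cells of a type and less RNA per cell cannot be told apart, and the part of embryonic RNA in the changes below was not tested. Markers of other tissues moved as well: between days 1 and 20 the mean level of mir-1 went from 655 to 166 CPM in rotenone and from 569 to 177 CPM in 2-deoxyglucose, that of mir-60 from 1806 to 829 and from 2139 to 621 CPM, and that of lsy-6 from 20.02 to 8.43 and from 22.6 to 8.72 CPM. The mean level of mir-228 went the other way, from 76620.2 to 127526 CPM and from 98368 to 104423 CPM, and mir-124 lay between 4.43 and 19.4 CPM in single libraries. The part of these tissues in the changes of the sisters was not tested either. At no age did a sequencing lane hold libraries of both compounds.

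With age the sisters went separate ways. mir-241 fell to a small fraction of its day 1 level by day 20, mir-84 rose more than 2-fold, and mir-48 was higher at day 10 than at day 1 and stood again near its day 1 level at day 20. Levels are given in CPM, the counts of a hairpin relative to a library size scaled by TMM, and changes as log2 differences with their standard error (SE) from the edgeR quasi-likelihood F test, whose p-values were adjusted over all 141 hairpins with a threshold of 0.05.

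**Figure D1:**
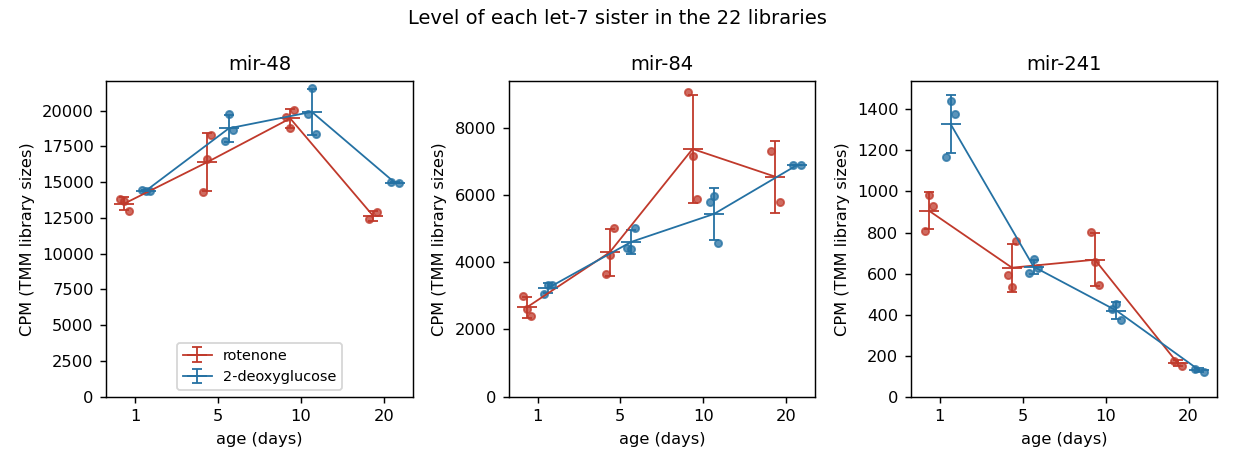
Level of mir-48, mir-84 and mir-241 in CPM (TMM library sizes) against age in days. Points are single libraries, horizontal marks and bars the mean ± SD of each group, and lines join the means of a compound. mir-48 is highest at day 10, mir-84 is lowest at day 1, and mir-241 is at most 173 CPM in the 4 libraries of day 20.

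mir-241, the scarcest of the sisters, held 806, 981 and 930.1 CPM in the 3 rotenone libraries of day 1 and 1168, 1441 and 1375 CPM in those of 2-deoxyglucose. At day 20 it held 173 and 152 CPM in rotenone and 135 and 123 CPM in 2-deoxyglucose. Every day 1 library was thus far above every day 20 library. The compounds did not overlap at either age. With 2 libraries each at day 20, the difference between them was not called there by the edgeR test (0.33 ± 0.20, adjusted p = 0.425).

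Between days 1 and 20 mir-241 fell by 2.48 ± 0.18 (SE) on the log2 scale in rotenone, a 5.58-fold fall (adjusted p = 4.99e-11). In 2-deoxyglucose it fell by 3.36 ± 0.19, or 10.3-fold (adjusted p = 4.83e-13). Both calls were kept under every alternative tried and without each of the 5 libraries of the comparison in turn, with values between -2.65 and -2.37 in rotenone and between -3.47 and -3.14 in 2-deoxyglucose.

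The course of the fall differed between the compounds. By day 5 mir-241 was at 593, 533 and 760.1 CPM in rotenone and 602, 670.1 and 629 CPM in 2-deoxyglucose, so that the groups overlapped. From there to day 10 it did not pass the test in rotenone, with 801, 656 and 546 CPM and a log2 change of 0.09 ± 0.15, while in 2-deoxyglucose it fell further, to 429, 454 and 375 CPM (-0.60 ± 0.15, adjusted p = 0.00352). From day 10 to day 20 it fell in both, with log2 changes of -2.04 ± 0.18 and -1.70 ± 0.18. By the edgeR test of the difference itself, the change from day 5 to day 10 was higher in rotenone by 0.68 ± 0.21 (adjusted p = 0.0311). That call was kept in only 4 of 7 alternatives and 3 of 12 omissions of a library.

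mir-84, which in the larva also acts on let-60 RAS in the developing vulva, moved the other way. It held 2984, 2593 and 2389 CPM in rotenone at day 1 and 3065, 3331 and 3311 CPM in 2-deoxyglucose. At day 20 the values were 7299 and 5775 CPM in rotenone and 6893 and 6876 CPM in 2-deoxyglucose. All 4 libraries of day 20 lay above all 6 of day 1, and at day 20 the compounds overlapped.

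The rise of mir-84 between days 1 and 20 was 1.30 ± 0.17 in rotenone, or 2.46-fold (adjusted p = 3.68e-07), and 1.09 ± 0.17 in 2-deoxyglucose, or 2.13-fold (adjusted p = 5.14e-06). Both calls were kept under every alternative and without each library in turn. In rotenone the rise was seen by day 10, when the libraries held 9047, 7159 and 5884 CPM, with steps of 0.69 ± 0.15 to day 5 (adjusted p = 7.94e-04) and 0.78 ± 0.15 from day 5 to day 10 (adjusted p = 5.40e-04). The first step stood at 0.41 (adjusted p = 0.0672) with total counts.

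In 2-deoxyglucose mir-84 rose by 0.51 ± 0.15 to day 5 (adjusted p = 0.00924) and the later single steps did not pass the test, although the call of the step from day 10 to day 20 (0.34 ± 0.17, adjusted p = 0.105) depended on the setting. It was past the threshold in 4 of 8 alternatives, which were RLE scaling (0.42), TMM without the most abundant hairpins (0.46), no filter (0.46) and DESeq2 (0.42), and in 2 of 5 omissions, those of 2-deoxyglucose day 10 library 1 (0.44) and 2 (0.46). The libraries held 4411, 4395 and 5001 CPM at day 5 and 5779, 5964 and 4558 CPM at day 10. The step to day 5 stood at 0.26 with total counts (adjusted p = 0.258). Over the first 10 days the rise was 0.75 ± 0.15 in 2-deoxyglucose and 1.47 ± 0.16 in rotenone, both past the threshold.

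mir-48, the most abundant sister by counts, ranged only from 12390.1 to 21594 CPM over the 22 libraries. At day 1 it held 13837, 13646 and 13013 CPM in rotenone and 14441, 14407 and 14346 CPM in 2-deoxyglucose. At day 10 it held 19511, 18779 and 20055 CPM in rotenone and 19742, 21594 and 18381 CPM in 2-deoxyglucose. Every library of day 10 was thus above every library of day 1.

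The rise of mir-48 from day 1 to day 10 was 0.53 ± 0.10 in rotenone (adjusted p = 1.80e-04) and 0.47 ± 0.10 in 2-deoxyglucose (adjusted p = 4.75e-04). In 2-deoxyglucose it stood at 0.24 with total counts (adjusted p = 0.0581). By day 20 mir-48 was back to 12390.1 and 12889 CPM in rotenone, a fall of 0.62 ± 0.12 from day 10 (adjusted p = 1.57e-04), and to 15010.5 and 14924 CPM in 2-deoxyglucose, a fall of 0.41 ± 0.12 (adjusted p = 0.00690). The latter call was lost without 2-deoxyglucose day 10 library 1 (-0.36) or 2 (-0.30) or day 20 library 2 (-0.37), and with total counts (-0.28), with TMM without the most abundant hairpins (-0.29) and with no filter (-0.29).

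Day 20 against day 1 gave -0.09 ± 0.12 for mir-48 in rotenone (95% interval -0.34 to 0.15) and 0.06 ± 0.12 in 2-deoxyglucose (-0.18 to 0.30), neither past the threshold. The early rise to day 5 was 0.28 ± 0.10 in rotenone (adjusted p = 0.0314), with libraries of 14289.8, 16616 and 18279 CPM, and 0.38 ± 0.10 in 2-deoxyglucose (adjusted p = 0.00455), with 17844, 19761 and 18654 CPM. The call in rotenone was lost without 5 of its 6 libraries in turn, in all but the omission of day 5 library 1, and the direction turned with total counts (-0.0051). DESeq2 kept it (0.23, adjusted p = 0.0266), and the other alternatives did not. Scaling by total counts moved the median of all hairpins by -0.29 in this comparison, and relative to the median mir-48 then stood at 0.28. The step of mir-48 from day 5 to day 10 was 0.25 ± 0.10 in rotenone (adjusted p = 0.0680) and 0.09 ± 0.10 in 2-deoxyglucose (adjusted p = 0.574), neither past the threshold. In rotenone it was called in 4 of 7 alternatives, RLE scaling (0.29), total counts (0.35), TMM without the most abundant hairpins (0.40) and DESeq2 (0.29), and without day 5 library 3 (0.41) or day 10 library 1 (0.45) or 2 (0.48). For the rise of mir-48 from day 1 to day 5 in 2-deoxyglucose, the call was lost without day 1 library 2 (0.28) or 3 (0.30). It was also lost with total counts (0.13) and with the libraries of that comparison alone (0.33).

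Set against all hairpins, many of which moved with age, the sisters' counts were not unusual. Between days 1 and 20, 2 of the 3 sisters passed the test in rotenone, where 63.8% of the 141 hairpins did, and 2 of 3 in 2-deoxyglucose, where 62.4% did. Between days 1 and 10 all 3 passed in both, where 55.3% of hairpins were called in rotenone and 66% in 2-deoxyglucose. The call of mir-241 in rotenone, at -0.44 ± 0.15 (adjusted p = 0.0147), was lost without rotenone day 1 library 2 (-0.38) or day 10 library 2 (-0.36) or 3 (-0.32). It was also lost without the day 5 libraries (-0.29) and with TMM without the most abundant hairpins (-0.34).

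For the single steps, all 3 sisters passed from day 1 to day 5, against a background of 45.4% in rotenone and 44.7% in 2-deoxyglucose. From day 5 to day 10, mir-84 passed in rotenone (34.8% of hairpins called) and mir-241 in 2-deoxyglucose (31.2%). From day 10 to day 20, mir-48 and mir-241 fell in both compounds, with 41.1% of hairpins called in rotenone and 46.1% in 2-deoxyglucose.

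Across the 8 groups, the order of mean levels of mir-241 ran from 2-deoxyglucose day 1 (1328 ± 142 CPM, SD, n = 3) through rotenone day 1 (906 ± 90.0, n = 3) to rotenone day 10, 2-deoxyglucose day 5 and rotenone day 5 (668, 634 and 629). After these came 2-deoxyglucose day 10 (419.5 ± 40.02, n = 3), rotenone day 20 (163 ± 14.6, n = 2) and 2-deoxyglucose day 20 (129 ± 8.93, n = 2). The 3 groups in the middle overlapped, and each of the other neighbours in this order was separated in every library.

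The order of mir-84 was rotenone day 10 (7363 ± 1591 CPM, n = 3), 2-deoxyglucose day 20 (6884 ± 11.8, n = 2), rotenone day 20 (6537 ± 1077, n = 2), 2-deoxyglucose day 10 (5434 ± 764, n = 3), 2-deoxyglucose day 5 (4602 ± 346, n = 3) and rotenone day 5 (4291 ± 699, n = 3). Each of these overlapped its neighbour. The day 1 groups stood below them without overlap, 2-deoxyglucose at 3235 ± 148 and rotenone at 2656 ± 302 (n = 3 each).

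For mir-48 the day 10 groups led, with 19905 ± 1613 in 2-deoxyglucose and 19448 ± 640.2 CPM in rotenone, followed by the day 5 groups with 18753 ± 963 and 16395 ± 2004 (n = 3 each), all overlapping their neighbours. 2-deoxyglucose day 20 (14967 ± 60.8, n = 2) fell within the range of rotenone day 5. It was followed, without overlap, by 2-deoxyglucose day 1 (14398 ± 48.3, n = 3), rotenone day 1 (13499 ± 431, n = 3) and rotenone day 20 (12640 ± 353, n = 2).

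The opposed courses were also read from ratios of counts within a library, which do not depend on how libraries are scaled. The log2 ratio of mir-241 to its chromosomal neighbour mir-48 was -3.67 ± 0.29 (SD) in the 6 libraries of day 1 and -6.57 ± 0.35 in the 4 of day 20, a shift of -2.89, or 7.44-fold. The ratio of mir-84 to mir-48 rose from -2.25 ± 0.14 to -1.04 ± 0.19, by 1.21, or 2.32-fold. The ratio of mir-241 to mir-84 fell from -1.42 ± 0.24 to -5.53 ± 0.25, by 4.11 on the log2 scale, or 17.2-fold. Each shift had p = 0.00476 in a 2-sided exact permutation test over the 10 libraries with both compounds pooled, the smallest p that its 210 arrangements gave, and the adjusted p over the 3 pairs was also 0.00476.

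Within each compound the shifts had the same direction. The ratio of mir-241 to mir-48 moved by -2.38 in rotenone and by -3.41 in 2-deoxyglucose, that of mir-84 to mir-48 by 1.39 and 1.03, and that of mir-241 to mir-84 by -3.77 and -4.45. With 3 libraries against 2 an exact permutation test cannot go below p = 0.1, which each of these reached.

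**Figure D2:**
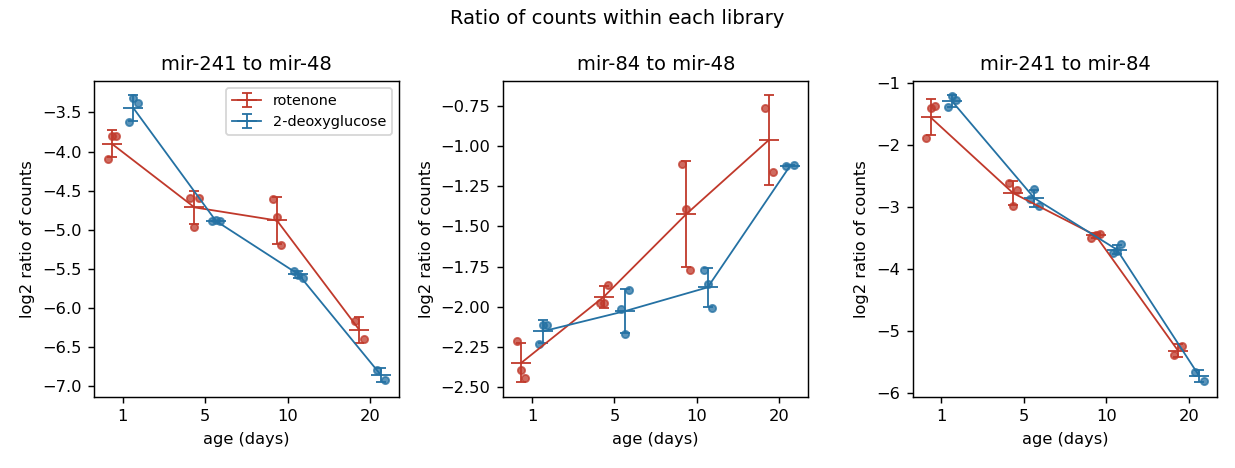
Log2 ratio of counts within each library for the 3 pairs of sisters against age in days. Points are single libraries, horizontal marks and bars the mean ± SD of each group, and lines join the means of a compound. The ratio of mir-241 to mir-48 ends at a mean of -6.28 in rotenone and -6.86 in 2-deoxyglucose, while that of mir-84 to mir-48 rises.

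Within the let-7 family as counted (let-7, the 3 sisters, mir-793, mir-794 and mir-795), these courses changed the make-up. The share of mir-84 grew from 11.6% ± 0.966 (SD, n = 3) at day 1 to 32.4% ± 4.18 (n = 2) at day 20 in rotenone, and from 13.2% ± 0.840 to 30.3% ± 0.131 in 2-deoxyglucose. The share of let-7 itself went from 22.6% ± 1.17 to 1.45% ± 0.205 and from 20.5% ± 2.33 to 1.29% ± 0.168. That of mir-241 went from 3.99% ± 0.490 to 0.806% ± 0.0432 and from 5.42% ± 0.673 to 0.567% ± 0.0358. mir-48 supplied most of the family's counts in every group, from 58.7% in 2-deoxyglucose day 1 to 73.9% in 2-deoxyglucose day 10. By counts per base of the annotated hairpin the order mir-48, mir-84, mir-241 held in all 22 libraries; ligation during library making depends on sequence, so shares describe reads.

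**Figure D3:**
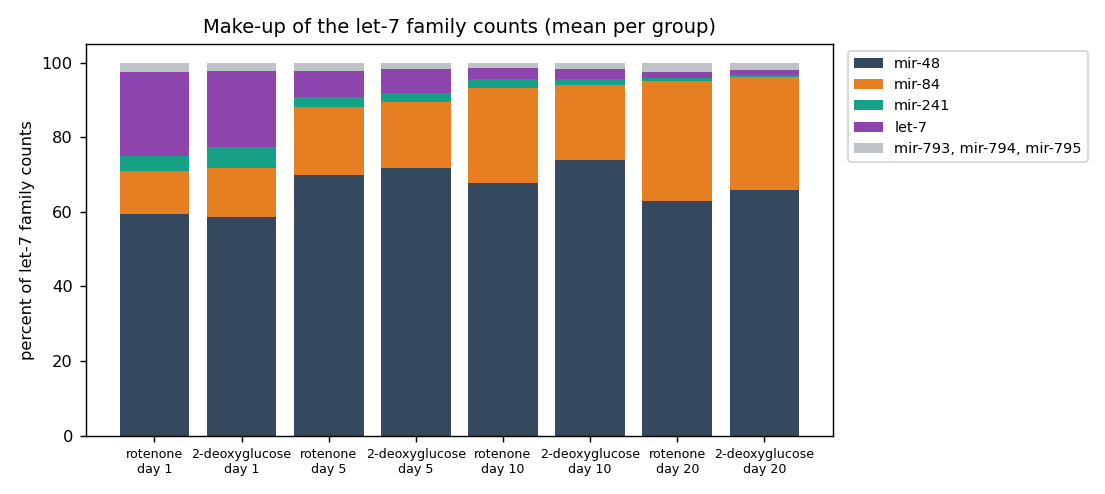
Mean share of each hairpin in the counts of the let-7 family, in percent, for the 8 groups of age and compound. The band of mir-84 widens from 11.6% to 32.4% in rotenone and from 13.2% to 30.3% in 2-deoxyglucose, and the band of let-7 narrows to 1.45% and 1.29%.

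Between the compounds, mir-241 was the only sister called at any age in the main edgeR fit, and its direction turned with age. mir-84 had the same signs at days 1 and 10 without passing the threshold. At day 1 mir-241 was lower in rotenone, 906 ± 90.0 against 1328 ± 142 CPM (n = 3 each), a log2 difference of -0.55 ± 0.15 (adjusted p = 0.0128). At day 10 it was higher in rotenone, 668 ± 128 against 419.5 ± 40.02 CPM, a difference of 0.67 ± 0.15 (adjusted p = 0.00813). The libraries of the compounds did not overlap at either age. At day 1 those of mir-48 and mir-84 did not overlap either, and how many of all hairpins were so separated was not counted. Of the 3 sisters 1 was called at each of these ages, where 11.3% and 5.67% of the 141 hairpins were.

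Both calls rested on single libraries. The day 1 call was lost without rotenone library 1 (-0.49, adjusted p = 0.0502), and the day 10 call without rotenone library 1 (0.56, adjusted p = 0.0610) or 2-deoxyglucose library 3 (0.60, adjusted p = 0.0570). With sequencing lane as a factor the values were -0.49 (adjusted p = 0.0753) and 0.58 (adjusted p = 0.0655).

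The turn itself was tested as the difference between the compounds in the change from day 1 to day 10, which was 1.22 ± 0.21 for mir-241 (adjusted p = 2.25e-04). It was kept under all 8 alternatives, lane included, with values from 1.07 to 1.29, and without each of the 12 libraries in turn, from 1.14 to 1.35. mir-84 gave the same direction, 0.72 ± 0.22 (adjusted p = 0.0225), with differences between the compounds of -0.29 ± 0.15 at day 1 and 0.44 ± 0.15 at day 10 that did not pass the test by themselves (adjusted p = 0.309 and 0.0888; 0.58, adjusted p = 0.0319, at day 10 without rotenone library 3). That call was lost with lane as a factor (0.55) and without rotenone day 1 library 2 (0.71) or 3 (0.65) or 2-deoxyglucose day 10 library 3 (0.61). mir-48 stood at 0.06 ± 0.15 (95% interval -0.24 to 0.36). Of the 3 sisters 2 were called here, against 14.2% of all hairpins.

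The embryonic hairpins differed between the same groups in the opposite sense. The summed level of mir-35 to mir-41 lay between 136619.6 and 187360 CPM in rotenone and 108604 and 138114 CPM in 2-deoxyglucose at day 1, and between 183238 and 250233 CPM in rotenone and 237696 and 303381 CPM in 2-deoxyglucose at day 10. The ranges overlapped at both ages. The mean levels of the intestinal marker mir-60 and the glial marker mir-228 differed in the same sense as mir-241. Their libraries did not overlap between the compounds, although for mir-60 at day 10 the ranges nearly met. These marker differences are described without a test, and how many of all hairpins were so separated was not counted. mir-60 lay between 1739 and 1907 CPM in rotenone and 2014 and 2230.5 CPM in 2-deoxyglucose at day 1, and between 1859 and 2445 against 1378 and 1854 CPM at day 10. mir-228 lay between 74111 and 80063 CPM in rotenone and 87280.1 and 107409 CPM in 2-deoxyglucose at day 1, and between 87614 and 105910 against 78561 and 82484 CPM at day 10. The muscle and neuron markers overlapped between the compounds at both ages. Rotenone day 10 library 1 held the lowest embryonic sum of its group and the highest mir-241 and mir-84, and library 3 the highest sum and the lowest mir-241 and mir-84. Rotenone day 1 went the other way for mir-241, with the lowest sum and level in library 1 (806 CPM) and the highest of both in library 2 (981 CPM). Its library 1 held the highest mir-84. In 2-deoxyglucose at both ages the library with the highest sum held the lowest mir-241 and mir-84, but that with the lowest sum held neither highest. The part of embryonic, intestinal or glial RNA in these differences was not tested.

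The within-library ratio of mir-241 to mir-48, which needs no scaling, differed in the same directions. At day 1 the log2 ratio of mir-241 to mir-48 was -4.10, -3.80 and -3.81 in rotenone and -3.63, -3.32 and -3.38 in 2-deoxyglucose. At day 10 it was -4.61, -4.84 and -5.20 in rotenone and -5.52, -5.57 and -5.61 in 2-deoxyglucose. The groups did not overlap at either age, lower in rotenone at day 1 and higher at day 10. With 3 libraries against 3 the 2-sided exact permutation test gave p = 0.1 at both ages, the smallest it allows (adjusted p = 0.3 over 12 such comparisons). The log2 ratio of mir-241 to mir-84 differed by -0.26 at day 1, where the compounds overlapped, and by 0.23 at day 10, where they did not. At day 20 the ratio of mir-241 to mir-48 was higher in rotenone by 0.57, without overlap between 2 libraries each.

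At day 5 and day 20 none of the sisters was called between the compounds, where 9.93% and 0.709% of hairpins were. At day 5 the log2 differences were -0.19 ± 0.10 for mir-48, -0.10 ± 0.15 for mir-84 and -0.01 ± 0.15 for mir-241 (95% intervals -0.41 to 0.02, -0.42 to 0.21 and -0.32 to 0.29). At day 20 they were -0.24 ± 0.13, -0.07 ± 0.19 and 0.33 ± 0.20 (-0.51 to 0.02, -0.46 to 0.31 and -0.08 to 0.75). The values of mir-48 were past the threshold by DESeq2 at both ages (-0.28, adjusted p = 0.0205, and -0.39, adjusted p = 0.0226). The mir-241 value of day 20 turned to -0.015 without 2-deoxyglucose library 2.

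**Figure D4:**
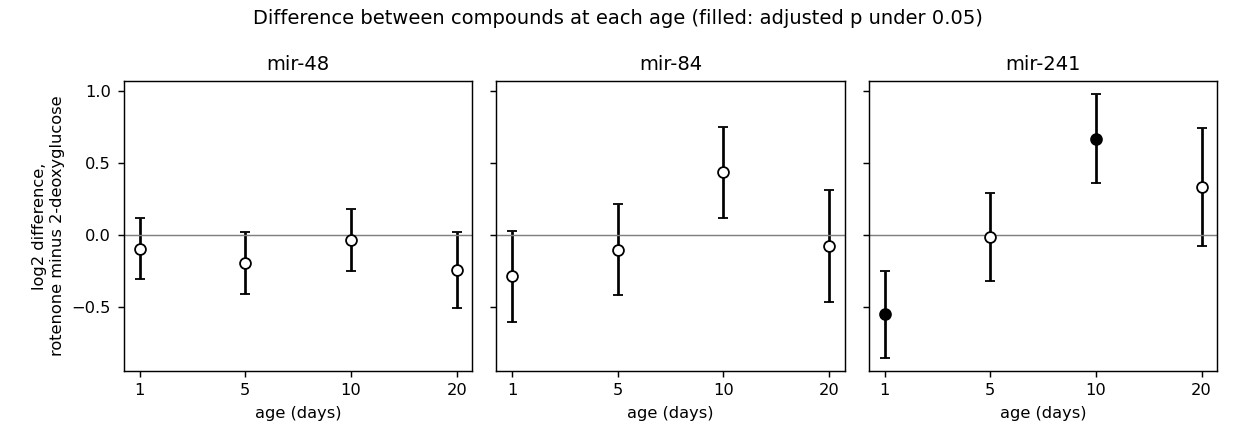
Log2 difference of mir-48, mir-84 and mir-241 between rotenone and 2-deoxyglucose at each age, from the edgeR fit, with 95% intervals as bars; filled points have an adjusted p under 0.05. mir-241 is at -0.55 at day 1 and 0.67 at day 10, and the points of mir-48 lie between -0.24 and -0.03.

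The remaining differences in age changes were smaller in their support. From day 5 to day 10 the change of mir-241 differed by 0.68 ± 0.21 (adjusted p = 0.0311, 1 of 3 sisters against 15.6% of hairpins), and the call was lost in 9 of 12 omissions of a library: rotenone day 5 libraries 1 and 2, 2-deoxyglucose day 5 libraries 2 and 3, rotenone day 10 libraries 1 and 2, and each 2-deoxyglucose library of day 10 (adjusted p up to 0.114). It was also lost with lane as a factor (0.65), total counts (0.77) and its libraries alone (0.78). From day 1 to day 20 it differed by 0.89 ± 0.25 (adjusted p = 0.0445, 1 of 3 against 3.55%). This call was lost under 6 of 8 alternatives and in 8 of 10 omissions: rotenone day 1 libraries 1 and 3, 2-deoxyglucose day 1 libraries 2 and 3, and each of the 4 libraries of day 20 (adjusted p up to 0.366). No sister was called for the change from day 1 to day 5 (6.38% of hairpins) or from day 10 to day 20 (3.55%), where mir-241 stood at 0.54 ± 0.21 and -0.34 ± 0.25.

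Of the other 6 hairpins of the let-7 and lin-4 families, 1 rose and 3 fell between days 1 and 20 in rotenone, and 0 rose and 4 fell in 2-deoxyglucose by the edgeR test. Of all 9 listed (let-7, its 6 relatives by seed, and lin-4 with its relative mir-237), with the sisters, 2 rose and 4 fell in rotenone, and 1 rose and 5 fell in 2-deoxyglucose. Of all 141 hairpins, 34% rose and 29.8% fell in rotenone, and 28.4% rose and 34% fell in 2-deoxyglucose. The median log2 change of the list was -0.33 and -0.65, beside -0.03 and -0.09 over all 141 hairpins. mir-241 was the sister on the side of let-7 (-4.14 ± 0.16 and -4.11 ± 0.16), of mir-237 (-4.75 ± 0.19 and -4.37 ± 0.18) and of lin-4 (-1.24 ± 0.18 and -1.35 ± 0.18).

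Among the rarer let-7 relatives, mir-795 rose in rotenone (0.40 ± 0.16, adjusted p = 0.0288) and stood at 0.33 ± 0.16 in 2-deoxyglucose (unadjusted p = 0.0452, adjusted p = 0.0678). mir-794 fell in 2-deoxyglucose (-0.65 ± 0.15) and stood at -0.19 ± 0.14 in rotenone, and mir-793 was not called in either. For the change from day 1 to day 10, the difference between the compounds was called for mir-241 and mir-84 and for none of the other 7; those of let-7 and lin-4 were 0.10 ± 0.17 and 0.26 ± 0.22.

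**Figure D5:**
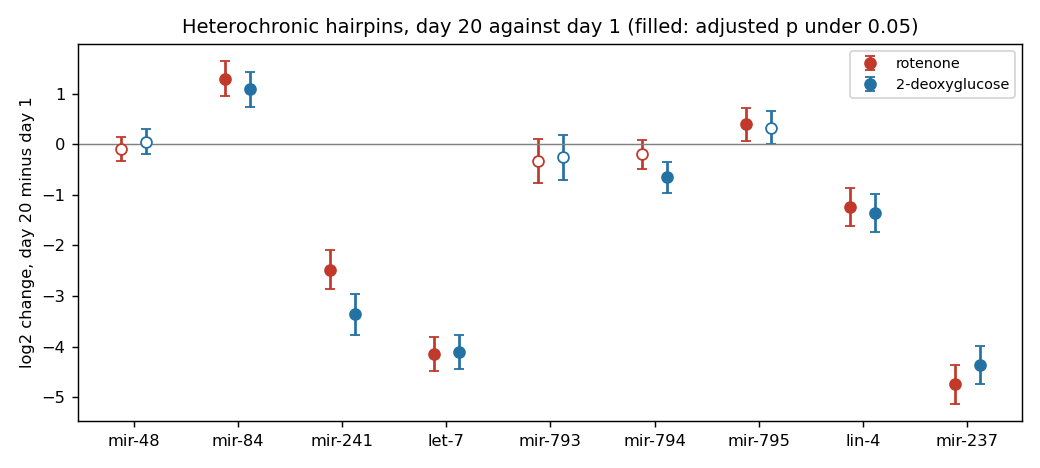
Log2 change from day 1 to day 20 of the 9 hairpins of the let-7 and lin-4 families in rotenone and 2-deoxyglucose, from the edgeR fit, with 95% intervals as bars. Filled points have an adjusted p under 0.05. mir-84 lies above 1 in both, mir-48 near 0, and mir-241 at -2.48 and -3.36 lies between lin-4 and let-7.

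Over the 22 libraries no sister was among the 3 hairpins most correlated with another. The closest pair was mir-48 and mir-84, with mir-84 at rank 17 for mir-48 and mir-48 at rank 42 for mir-84. The Pearson correlation of log2 CPM was 0.45 between mir-48 and mir-84, 0.11 between mir-48 and mir-241 and -0.63 between mir-84 and mir-241. These are descriptions, since the points share age and library. The hairpins most like mir-241 were mir-229 (0.93), mir-1020 (0.93) and mir-1830 (0.92), those most like mir-84 were mir-240 (0.91), mir-239a (0.90) and mir-786 (0.90), and those most like mir-48 were mir-66 (0.84), the bantam relative mir-82 (0.77) and mir-77 (0.75). Over the 8 group means the names for mir-48 were the same, while lin-4 (0.98) joined mir-229 and mir-1020 for mir-241, and mir-784 (0.99), mir-786 (0.98) and mir-53 (0.96) led for mir-84.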

How the data were processed

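Small RNA of whole worms was sequenced from TruSeq libraries, per the labels' protocols. The submitters' processing notes name BWA 0.7.12-r1039, CASAVA 1.8.4, SAMtools 1.3.1-9 and Trimmomatic 0.36 without their steps. Not given in the sources used here: how reads with several matches were handled, whether strand was used and which build served. The deposited values are raw counts (whole numbers) for 250 hairpins in 22 libraries; the arms of a hairpin are summed, and a read shared by similar hairpins cannot be assigned. Columns were matched to samples by title.

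The analysis used edgeR 4.0.16 (R 4.3.3). filterByExpr (minimum count 10, minimum total 15) kept 141 hairpins, which were scaled by TMM and fitted as 8 groups with robust dispersions (median coefficient of variation 13.3%). For each of 19 contrasts the edgeR quasi-likelihood test was run, Benjamini-Hochberg adjusted over the 141 hairpins. The SE was taken as log2 change over root F. Ratios within a library used counts plus 0.5. Alternatives were DESeq2 1.42.0, other scalings, no filter, lane as a factor, the libraries of a contrast alone and omission of each library, to which leaving out the day 5 libraries was added after seeing the data. TMM without the most abundant hairpins also left out the mir-35 family. The fit was tested on simulated data. Library numbers come from record order and say nothing of pairing. Libraries of a group differed beyond counting noise (chi-square per degree of freedom 9.15 to 256). Named hairpins are the sisters, the other 6 of the let-7 and lin-4 families, the 3 most correlated with each sister, and miRNA genes within 10 kb. The sisters and lists were chosen with earlier results of these data known.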

Additional observations from a re-analysis of the deposited data

Results flagged for a closer look

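The following age changes differed between rotenone and 2-deoxyglucose by the edgeR test of the difference itself. The change of mir-241 from day 1 to day 10 was higher in rotenone by 1.22 ± 0.21 (SE) on the log2 scale (adjusted p = 2.25e-04). Its change from day 5 to day 10 was higher by 0.68 ± 0.21 (adjusted p = 0.0311) and that from day 1 to day 20 by 0.89 ± 0.25 (adjusted p = 0.0445). For mir-84 the change from day 1 to day 10 was higher in rotenone by 0.72 ± 0.22 (adjusted p = 0.0225). Groups of 2 or 3 libraries are too small for the test of single outlying libraries.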

How the results depend on the processing

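Most values kept their direction and their side of the threshold. Those that did not are given here or beside the value in the report, and where no reason is given the cause was not tested. Values are log2 differences. With lane as a factor, the difference between the compounds was -0.49 for mir-241 at day 1 and 0.58 at day 10, both no longer called, and turned to 0.0091 for mir-48 at day 1 and 0.076 for mir-84 at day 20. In the same fit, the difference in the change from day 1 to day 10 was 0.55 for mir-84, no longer called, and turned to -0.17 for mir-48, and that from day 5 to day 10 turned to -0.0052 for mir-48. The difference in the change of mir-241 from day 1 to day 20 lost its call with RLE scaling (0.75), total counts (0.82), TMM that left out the mir-35 family and the other 5 top hairpins (0.77), no filter (0.74), lane (0.87) and DESeq2 (0.75). The difference between the compounds of mir-48 gained a call at day 5 with the reduced TMM (-0.40) and DESeq2 (-0.28), and at day 20 with DESeq2 (-0.39) and with the 4 libraries of day 20 alone (-0.41). Uncalled values near 0 turned for mir-48 at day 10 with its libraries alone (0.013), for mir-48 from day 1 to day 20 in rotenone with that reduced TMM (0.017) and in 2-deoxyglucose with total counts (-0.049), for the difference in the change of mir-48 to day 10 with its libraries alone (-0.045) and of mir-84 to day 5 with the reduced TMM (-0.021). The difference in the change of mir-84 from day 5 to day 10 (0.54, adjusted p = 0.102) gained a call with the reduced TMM (0.74) and without rotenone day 10 library 3 (0.68). The call of mir-48 from day 1 to day 5 in rotenone turned to -0.0051 with total counts. With 1 compound alone the ratio of mir-241 to mir-48 moved by -2.38 and -3.41, that of mir-84 to mir-48 by 1.39 and 1.03 and that of mir-241 to mir-84 by -3.77 and -4.45, where 3 against 2 libraries cannot pass.

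Leaving out single libraries gave, between the compounds, -0.64 to -0.49 for mir-241 at day 1, -0.12 to 0.093 at day 5, 0.56 to 0.80 at day 10 and -0.015 to 0.28 at day 20; 0.30 to 0.58 for mir-84 at day 10 and -0.19 to 0.0046 at day 5; and -0.088 to 0.047 for mir-48 at day 10. It gave 0.61 to 0.86 for the difference in the change of mir-84 to day 10, -0.040 to 0.25 for that of mir-84 to day 20, 0.58 to 0.97 for that of mir-241 to day 20, and -0.017 to 0.30 for mir-241 from day 5 to day 10 in rotenone. At day 20 an omission leaves 1 library in a group, which is then assumed to vary like the others.

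Counts of hairpins called over the whole table moved more. For the differences between the compounds, leaving out the day 5 libraries, an alternative chosen after seeing the data, raised 16 to 31 at day 1 and 8 to 21 at day 10. At day 10 they went to 4 with no filter and to 0 in edgeR without 2-deoxyglucose library 3 (26 at an unadjusted p under 0.05), at day 20 from 1 to 18 with its libraries alone, and from 14 to 0 in edgeR at day 5 with its libraries alone (12 at an unadjusted p under 0.05; 16 by DESeq2 over all libraries). From day 5 to day 10 in rotenone they went from 49 to 19 with those libraries alone. For the differences in age changes they went from 9 to 3 (to day 5, lane), 22 to 3 (day 5 to day 10, libraries alone), 5 to 16 (day 10 to day 20), 20 to 38 (to day 10) and 5 to 12 (to day 20), the last 3 without the day 5 libraries, and 5 to 3 (to day 20) with the reduced TMM. Omitting 1 library gave 7 (rotenone library 1) to 11 calls between the compounds at day 1, 10 to 26 (2-deoxyglucose library 1) at day 5 and 0 to 10 at day 10. For the differences in age changes it gave 5 to 11 (to day 5), 2 to 26 (day 5 to day 10), 1 to 8 (day 10 to day 20), 12 to 26 (to day 10) and 3 to 6 (to day 20). Calls also fell from 49 to 31 (day 5 to day 10 in rotenone, without day 10 library 2) and from 65 to 42 (day 10 to day 20 in 2-deoxyglucose, without day 20 library 1). No paired analysis was possible because the labels give no replicate numbers. Depth does not limit the sisters, whose lowest count was 122.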
